A study of Mus musculus with 4 samples.

Results

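The nuclear genes for mitochondrial ribosomal proteins were examined in resting and activated regulatory T cells (Treg) sorted from mouse spleen. Members were the protein-coding genes whose symbol begins with Mrpl or Mrps followed by a digit, which gave 77 of the 38924 Ensembl identifiers in the deposited tables. By symbol, 48 belong to the large and 29 to the small subunit of the mitochondrial ribosome. Mrpl33 also carries such a symbol, but its identifier was not matched in the tables and it was not analysed here. Treg are CD4+ T cells defined by the transcription factor Foxp3, and they restrain immune responses. The study compared resting and activated Treg, with 2 libraries in each group, and its design text states that the duplicates came from independent animals. Both groups are labelled with a single gate of CD4+Foxp3+ cells low in CD44, and differ in the labels only by the words resting and activated. The sources used here give no strain, age, allele or treatment of the animals, nor how Foxp3+ cells were marked for sorting.

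Mitochondria keep a small genome that encodes a few subunits of the respiratory chain, and they translate those messages with their own ribosome. The RNAs of that ribosome come from the mitochondrial genome, whereas all its proteins are encoded in the nucleus, made in the cytosol and imported. In T cells, activation and growth are known to go along with more mitochondrial mass and mitochondrial translation. Some members have a counterpart in bacterial ribosomes, and the others are found only in mitochondria.

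RNA was amplified with SMART-seq v4, a kit for very low inputs that carries no molecular identifiers, so counts are reads and intervals cover counting and replicate spread between these libraries only. Library totals ranged from 20282062 to 31851982 counts. The headings of the count table name only the group of each column without a usable replicate number, so the libraries of each group are called A and B, and the letters pair nothing. Where 4 values follow each other, resting A and B come first and the activated pair second. Values are CPM, the counts of a gene scaled to a common library size, and 1 CPM stood for 20.3 to 30.6 counts. Cd4 was between 897 and 1245 CPM and Foxp3 between 35.1 and 38.8 CPM in the 4 libraries. Cd44 was at 145 and 213 CPM in the resting and at 329 and 335 CPM in the activated libraries. The A library of each group held more macrophage RNA and the B library more RNA of proliferation genes, as given below beside the results that move with them.

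All 77 members passed the filter on low counts. By edgeR's quasi-likelihood test with Benjamini-Hochberg adjustment over 14235 genes, 0 of 48 large subunit and 0 of 29 small subunit genes differed between activated and resting Treg, where 0 of all genes tested were called (0.0%). At an unadjusted edgeR p under 0.05 the count of members was also 0, against 1268 of 14235 genes (8.91%), of which 6.3% of genes tested lay higher and 2.61% lower in activated Treg. In bulk samples such as these, fewer cells of a type and less RNA per cell cannot be told apart. DESeq2 called 0 members, with a smallest adjusted p of 0.606 among them, and 442 of the 13959 genes to which it gave an adjusted p (3.17%). The median log2 fold change, activated over resting, was -0.03 in the large and -0.04 in the small subunit, and -0.01 over all genes tested. A single library turned the direction of both medians: they were 0.154 and 0.0995 with activated A left out, and 0.107 and 0.0914 with resting B left out. With activated B left out they were -0.207 and -0.197, and with resting A left out -0.132 and -0.152. In all, 34 members lay above 0 and 43 below it (55.8% of members below 0, against 50.9% of all genes tested). Single members ranged from -0.40 for Mrpl30 to 0.39 for Mrps6.

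The precision of single members is given by unadjusted intervals. An approximate 95% interval of the log2 fold change reached a median of 0.59 to either side over the members. For 71 of 77 members the interval stayed within 1 log2 unit of 0, that is, within a 2-fold difference either way. For 10 of them it stayed within a 1.5-fold difference. The 6 members with wider intervals were Mrpl53, Mrpl54, Mrpl14, Mrps30, Mrps36 and Mrps6. These intervals are no limit of what the adjusted test could call, since it called 0 genes of any size. Siglech, a plasmacytoid dendritic cell gene named here after its values were seen, was at 0.778, 0.261, 279.7 and 58.7 CPM, and its log2 fold change of 8.22 had an edgeR adjusted p of 0.267.

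**Figure D1:**
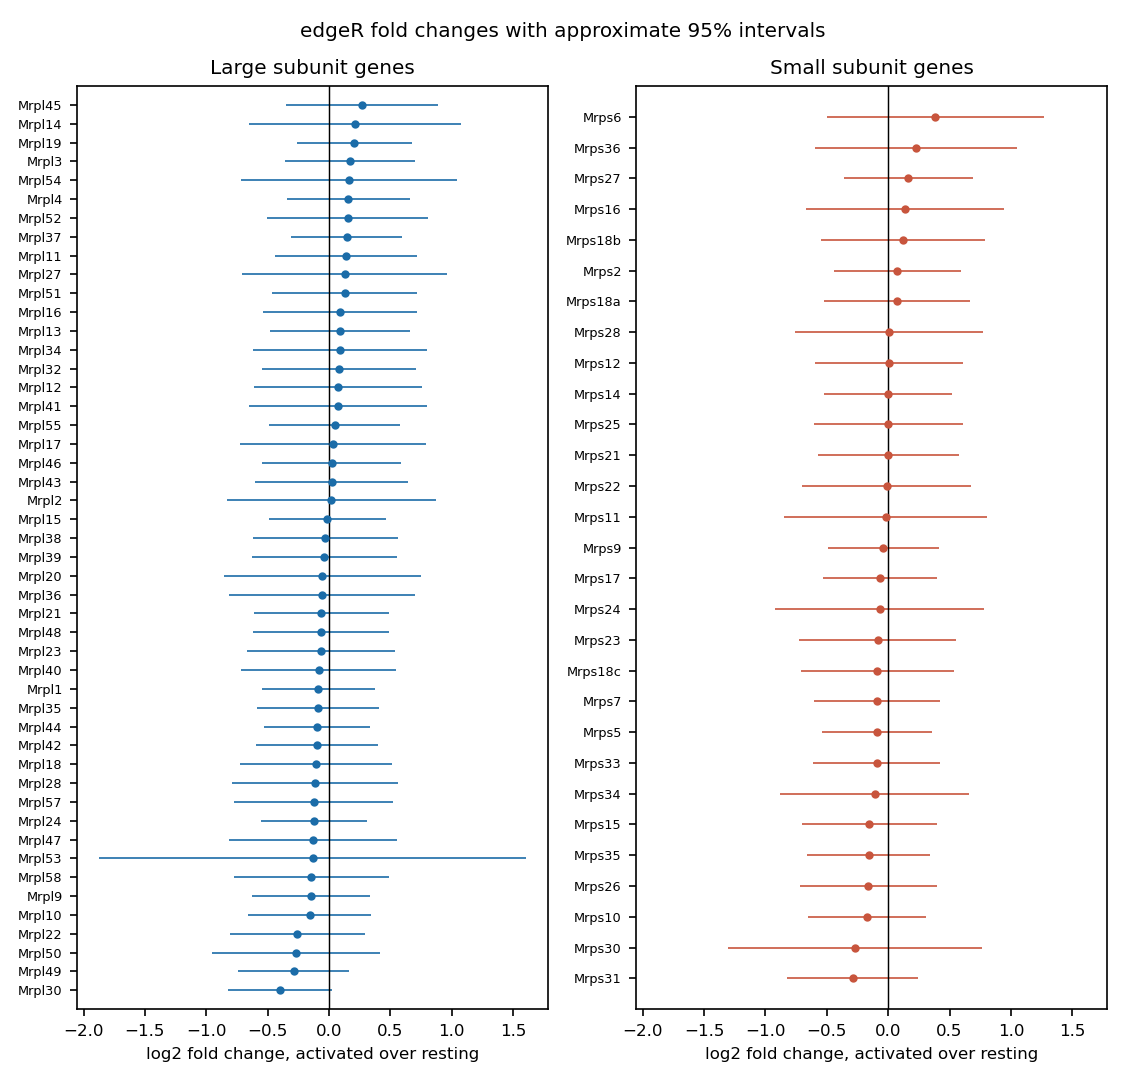
Log2 fold change of each member, activated over resting Treg, from edgeR (points) with approximate 95% intervals (bars), large subunit on the left and small subunit on the right. All 77 intervals include 0; the fold changes lie between -0.40 and 0.39, and the widest interval belongs to Mrpl53.

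The groups did not overlap in 15 of 77 members (19.5%), against 37.2% of all genes tested. Activated Treg lay above in 4 of them and below in 11, where 19.8% and 17.4% of all genes tested did so. In the large subunit, Mrpl30, a protein with a bacterial counterpart, had the smallest p. Its level was 112 and 115 CPM in the resting and 81.6 and 90.1 CPM in the activated libraries. The activated libraries lay below the resting ones without overlap, and libraries of one group lay close together. The means were 113 ± 2.44 CPM (SD, n = 2) and 85.8 ± 5.97 CPM, with a log2 fold change of -0.40 ± 0.16 (SE), an interval from -0.82 to 0.02, and an edgeR p of 0.0582 (adjusted p = 0.591). By limma on the deposited regularized log2 values its adjusted p was 0.519, and 0.0545 with the replicate number as a block. The Mrpl30 gene occupies chr1:37890477-37898535, plus strand (mm10, GENCODE M21).

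Mrpl49, a protein found only in the mitochondrial ribosome, was at 43.2 and 44.9 CPM in the resting and at 36.6 and 35.4 CPM in the activated libraries. Mrpl22, whose bacterial counterpart lines the exit tunnel for the nascent chain, was at 32.5 and 34.2 CPM in the resting and at 24.5 and 31.3 CPM in the activated libraries. Mrpl24 was at 80.6 and 72.9 CPM in the resting and at 72.7 and 67.95 CPM in the activated libraries, a gap between the groups far smaller than the gap within each. These 3 lay lower in the activated libraries without overlap, with log2 fold changes of -0.29 ± 0.18, -0.26 ± 0.22 and -0.13 ± 0.17, and none passed (edgeR adjusted p = 0.810, 0.909 and 0.969).

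The large subunit held 3 members with the activated libraries on the upper side. Mrpl19, which has a bacterial counterpart, was at 55.0 and 60.3 CPM in resting and at 61.5 and 71.7 CPM in activated Treg. Mrpl3, whose bacterial counterpart lies near the peptidyl transferase centre, was at 25.6 and 21.8 CPM in resting and at 27.4 and 26.0 CPM in activated Treg. Mrpl37, a mitochondrion-specific protein, was at 41.8 and 43.4 CPM in resting and at 45.1 and 48.9 CPM in activated Treg. These steps were small, with log2 fold changes of 0.21 ± 0.18, 0.17 ± 0.21 and 0.14 ± 0.18, and none passed (edgeR adjusted p = 0.924, 0.959 and 0.964).

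In the small subunit the lowest p was 0.225 by edgeR (adjusted p = 0.876), for Mrps31, a mitochondrion-specific protein. Mrps31 was at 33.7 and 29.7 CPM in the resting and at 28.1 and 23.8 CPM in the activated libraries, a log2 fold change of -0.29 ± 0.21. The groups did not overlap, but their nearest libraries lay closer to each other than libraries of one group did. Mrps10 was at 32.0 and 34.8 CPM in the resting and at 30.7 and 28.5 CPM in the activated libraries. Mrps35 was at 42.6 and 41.7 CPM in the resting and at 34.2 and 41.3 CPM in the activated libraries, so that activated B lay next to the resting pair. Mrps5, with a bacterial counterpart, was at 51.8 and 53.2 CPM in the resting and at 47.1 and 51.5 CPM in the activated libraries. Mrps27, an RNA-binding repeat protein, was the only small subunit member with both activated libraries above, at 27.2 and 26.3 CPM in resting and at 27.19 and 32.8 CPM in activated Treg. Resting A and activated A differed there by less than the rounding of most values in this text.

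Members with a known role beyond the subunit core showed no difference that passed either. Mrpl12, the stalk protein that recruits translation factors, was at 35.6 and 42.8 CPM in the resting and at 33.0 and 49.6 CPM in the activated libraries. Mrps12, the protein next to the decoding centre, was at 31.5 and 38.3 CPM in the resting and at 30.2 and 39.8 CPM in the activated libraries. In both genes the B library of each group was the higher one, and the groups overlapped. Mrpl44, which has a domain related to RNase III, was at 61.2, 60.4, 54.3 and 59.2 CPM. Mrpl58, a peptidyl-tRNA hydrolase built into the large subunit that releases stalled chains, was at 76.9, 94.3, 63.4 and 91.6 CPM. The groups did not overlap for Mrpl44, whose 4 values lay close together, and Mrpl58 was high in resting B and activated B.

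Several symbols do not match the place of the protein. Mrps18a, Mrps18b and Mrps18c are 3 relatives of a single bacterial protein; structures place the Mrps18a protein, and likewise the Mrps30 protein, in the large subunit. Mrps18a was at 65.4, 76.9, 62.4 and 87.3 CPM, and Mrps18c at 55.1, 74.5, 53.0 and 69.0 CPM. Mrps18b was far lower, at 14.7, 13.0, 16.7 and 13.4 CPM, and its A libraries were the higher ones, the opposite of its relatives. Their log2 fold changes were 0.07 ± 0.23 for Mrps18a, 0.12 ± 0.26 for Mrps18b and -0.09 ± 0.24 for Mrps18c. Mrps36, whose protein is known as a part of the oxoglutarate dehydrogenase complex, was at 9.97, 12.3, 10.5 and 15.6 CPM. With Mrps18a and Mrps30 counted as large and Mrps36 left out, the medians were -0.03 in the large and -0.05 in the small subunit.

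Levels were compared between genes per length. Per kilobase (kb) of annotated exon, the median level was 25.4 CPM in the large and 13.6 CPM in the small subunit. These medians depend on counting the exons of all annotated transcripts, and no median was taken per kb of the principal transcript. They therefore do not show that large subunit genes have higher levels. Mrps21 had the highest level at 97.7 CPM per kb, followed in the small subunit by Mrps18c at 58.5 CPM per kb. In the large subunit Mrpl18, whose bacterial counterpart binds ribosomal RNA, was highest at 88.4 CPM per kb, and Mrpl36 followed at 72.2 CPM per kb. The lowest in the large subunit were Mrpl53 at 0.460 and Mrpl23 at 2.91 CPM per kb, and in the small subunit Mrps30 at 0.554 and Mrps10 at 3.90 CPM per kb. Per kilobase of the principal transcript alone the order at the top differed: Mrpl52 was highest at 181 CPM, followed by Mrps21 at 148 and Mrpl42 at 116 CPM, with Mrpl18 at 101 and Mrpl36 at 90.8 CPM. On that scale Mrpl23 was at 20.6 and Mrps10 at 30.9 CPM, above their place per kb of all exons, whereas Mrpl53 and Mrps30 were the 2 lowest members on both scales, here at 0.523 and 1.11 CPM per kb. Across the 77 members, which are not independent of each other and share the libraries, the order of levels was similar in all 4 libraries (Spearman's rho from 0.916 to 0.982).

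**Figure D2:**
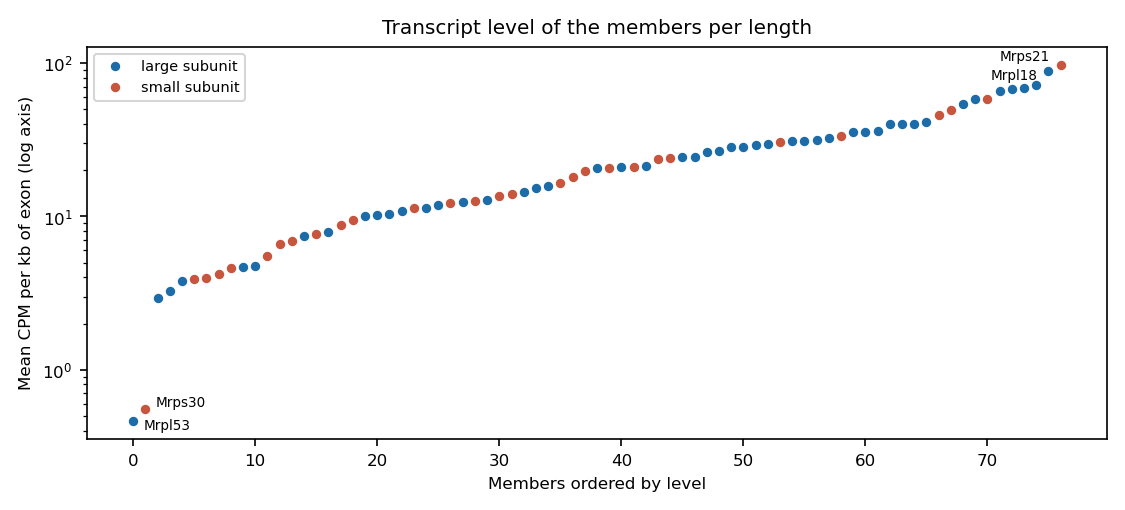
Mean level of each member over the 4 libraries in CPM per kb of annotated exon (log axis), with members in rising order along the x axis and coloured by subunit. Most members lie on a gradual slope, Mrpl53 (0.460) and Mrps30 (0.554) stand apart at the bottom, and Mrps21 (97.7) and Mrpl18 (88.4) lie at the top.

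Mrpl53 was covered by 5, 16, 12 and 6 counts, the fewest of any member. Mrps30 had 73, 139, 84 and 80 counts. Exons of 30 of the 77 members overlap exons of another annotated gene, 27 of them on the opposite strand. Mrpl53 overlaps Ccdc142os on the other strand and Gm42688 on its own, and Mrps30 overlaps B430218F22Rik. The kit does not mark the strand and the sources used here give no strand setting for the counting, so levels of such members are uncertain. Mrps6, the member with the highest fold change, shares exon sequence with Slc5a3 on its own strand.

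Most members differed in one direction between the libraries of a group. In resting Treg, 67 of 77 members (87.0%) were higher in resting B than in resting A, against 49.7% of all genes tested, with a median log2 difference of 0.28. In activated Treg, 63 of 77 (81.8%) were higher in activated B than in activated A, against 48.3% of all genes tested, with a median log2 difference of 0.35. Both held for 59 members (76.6%), against 35.3% of all genes tested. Large and small subunits shared this pattern, with 38 of 48 and 21 of 29 members. For 56 of 77 members the difference between the groups was smaller than the distance between the libraries of either group; over all genes tested this share was 43.0%.

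**Figure D3:**
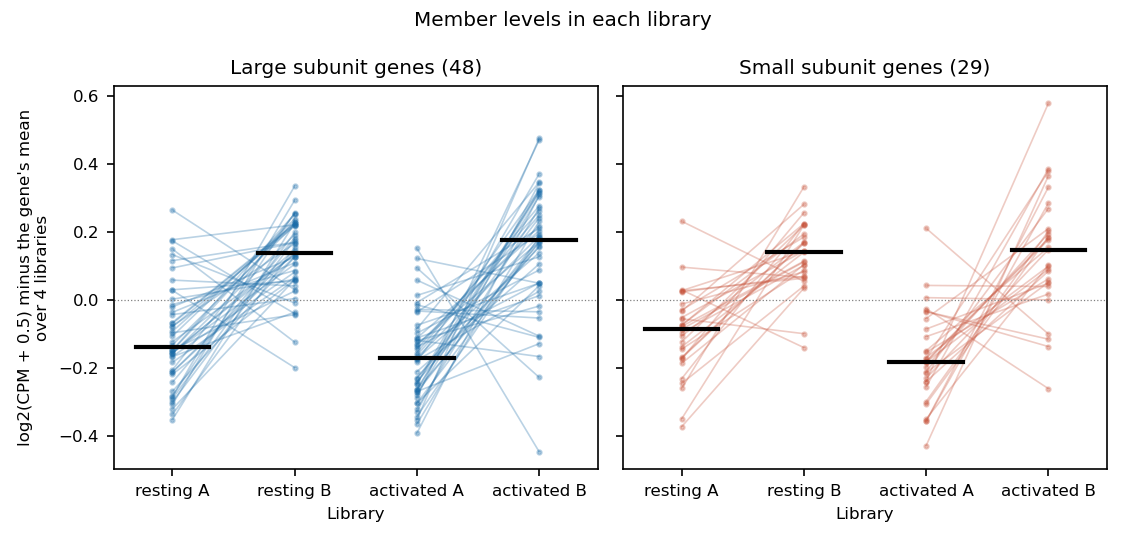
Level of each member in each library as log2(CPM + 0.5) minus the gene's mean over the 4 libraries, large subunit on the left and small subunit on the right; thin lines join the 2 libraries of a group and black bars are medians. The medians are -0.14, 0.14, -0.17 and 0.18 in the large subunit and -0.09, 0.14, -0.18 and 0.15 in the small one, so that the B libraries lie above the A libraries in both groups.

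Summed over the 48 large subunit genes the level was 2350 and 2813 CPM in the resting and 2229 and 2852 CPM in the activated libraries. Over the 29 small subunit genes it was 1145, 1348, 1083 and 1371 CPM. For both subunits the 2 groups overlapped entirely, with the activated libraries lowest and highest. Library against library, the median log2 difference of the large subunit was -0.05 for activated A over resting A and 0.05 for activated B over resting B. It was -0.31 for activated A over resting B and 0.30 for activated B over resting A. In the small subunit the same 4 medians were -0.07, -0.01, -0.29 and 0.26. These are values without a test, and the pairs were set up after the data had been seen.

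The deposited regularized log2 values, whose headings do carry replicate numbers, showed the same form. They are a transform of counts from the same libraries, so this is no separate observation. There 67 members were higher in resting replicate 2 than in resting replicate 1, and 66 were higher in activated replicate 2 than in activated replicate 1. Relative to the gene's mean, the median of the large subunit was -0.12 and 0.13 in resting replicates 1 and 2 and -0.17 and 0.16 in activated replicates 1 and 2. That of the small subunit was -0.08, 0.14, -0.18 and 0.14.

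By the SD of log2(CPM + 0.5) pooled over both groups, the libraries of a group lay widest apart for Mrpl54, Mrps6 and Mrpl14, among members with at least 3 log2 CPM. Mrpl54 was at 44.5, 62.2, 42.9 and 76.6 CPM. Mrps6 was at 20.7, 27.6, 22.7 and 40.5 CPM, and Mrpl14 at 26.4, 37.4, 27.4 and 46.7 CPM. In all 3 the A libraries were low in both groups and activated B was highest, and the log2 fold changes of 0.16 ± 0.34, 0.39 ± 0.35 and 0.21 ± 0.34 had the largest errors of the well-covered members. The opposite order, with the B library below the A library in both groups, was seen in 6 members (7.79%, against 37.2% of all genes tested): Mrpl47, Mrpl24, Mrpl50, Mrps31, Mrpl3 and Mrps18b. Among them Mrpl50 differed most, at 51.8 and 44.0 CPM in the resting and at 47.9 and 31.4 CPM in the activated libraries.

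**Figure D4:**
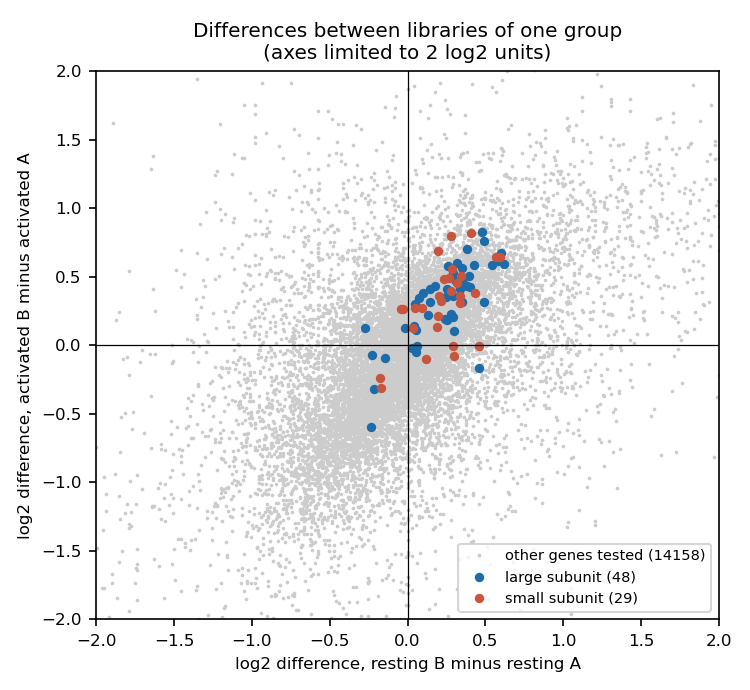
Log2 difference between the 2 libraries of each group for every gene tested, resting B minus resting A on the x axis and activated B minus activated A on the y axis (grey, other genes; blue, large subunit; red, small subunit; 373 other genes lie beyond the axis limits of 2). Most members lie at the upper right, at medians of 0.28 and 0.35, and 6 lie in the lower left.

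Across the 77 members the 2 within-group differences went together with Spearman's rho = 0.663, and across the 12010 protein-coding genes tested with rho = 0.601. Genes are not independent replicates, and both sets share these 4 libraries, so no p is given. Members are short transcripts, with a median principal transcript of 1316 bases. The difference was larger for the 39 members at or under that length (medians 0.29 in resting and 0.42 in activated Treg) than for the 38 longer ones (0.20 and 0.24). For the 1389 other protein-coding genes at or under that length the medians were 0.19 and 0.26, and 58.8% had both B libraries above, whereas for the 10544 longer ones they were -0.002 and -0.05, with 34.5%. GC content of the transcript went with the differences too, with Spearman's rho of 0.174 in resting and 0.349 in activated Treg over the members and 0.223 and 0.400 over protein-coding genes; for length these were -0.303 and -0.374, and -0.237 and -0.253. The part of length or GC content in the members' difference was not tested.

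Other lists moved with the same libraries. All 16 of 16 proliferation genes, among them Mki67 and Top2a, were higher in the B library of both groups (35.3% of all genes tested). Their summed levels were 574 and 1921 CPM in the resting and 772 and 1471 CPM in the activated libraries. All 5 of 5 macrophage markers (Adgre1, Csf1r, Cd68, Lyz2 and Vcam1) were lower in both B libraries (37.2% of all genes tested). Their sums were 374 and 12.6 CPM in resting and 459 and 60.7 CPM in activated Treg, and none was at 0 in any library. The part of either list in the members' difference between libraries was not tested. Plasmacytoid dendritic cell markers followed the groups instead, at 120.2 and 132 CPM in resting and at 958 and 312 CPM in activated Treg, and with 5 of 5 markers higher in both activated libraries (19.8% of all genes tested). The members' sums overlapped between the groups.

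**Figure D5:**
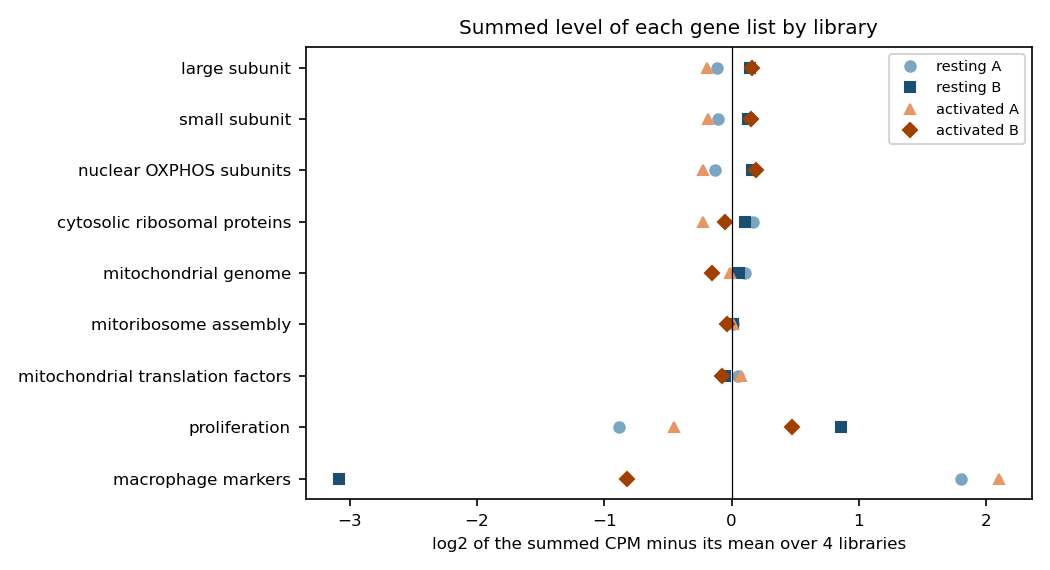
Summed CPM of each gene list in each library, as log2 minus the mean over the 4 libraries (OXPHOS, oxidative phosphorylation). Both subunits and the nuclear OXPHOS subunits are highest in resting B and activated B, as are proliferation genes; macrophage markers have the opposite order, and cytosolic ribosomal proteins are highest in the 2 resting libraries.

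Genes that work with the mitochondrial ribosome were read from lists. The 79 tested nuclear subunits of oxidative phosphorylation, whose complexes also hold the products of mitochondrial translation, shared the members' order of libraries. Of them, 74 (93.7%) were higher in the B library of both groups, against 35.3% of all genes tested. The median log2 fold change between groups was 0.01. Of these, 0 passed the edgeR test over all genes, and at an unadjusted p under 0.05 there was 1 of 79 on each side, against 6.3% higher and 2.61% lower over all genes tested. The upper one was Cox6a2, a heart and muscle form of a cytochrome oxidase subunit, with 9, 2, 920 and 164 counts. It was higher in both activated libraries, and higher in activated A than in activated B, as were all 5 plasmacytoid dendritic cell markers. The same order was seen in the CD8 T cell markers Cd8a and Cd8b1 and in Lyz2, 1 of the 5 macrophage markers. Whether the Cox6a2 counts come from any of these cells was not tested. The 5 mitochondrial ribosomal proteins with other names (Dap3, Ptcd3, Chchd1, Aurkaip1 and Gadd45gip1) had a median of -0.13. Dap3, a small subunit protein that binds GTP, was at 139 and 149.9 CPM in resting and at 117 and 140.2 CPM in activated Treg, and Ptcd3 at 84.7 and 75.2 CPM in resting and at 81.5 and 59.3 CPM in activated Treg.

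The machinery that builds and runs the mitochondrial ribosome did not share the members' order of libraries. Over all genes tested, 35.3% were higher and 37.2% lower in both B libraries. Of 27 assembly and rRNA modification factors, 9 were higher (33.3%) and 7 lower (25.9%) in both B libraries, and their median log2 fold change was -0.03. Noa1, a GTPase of small subunit assembly, was at 9.29 and 9.89 CPM in resting and at 6.80 and 6.91 CPM in activated Treg, with a log2 fold change of -0.48 ± 0.28 that did not pass. Of 14 tested translation factors, 3 were higher (21.4%) and 6 lower (42.9%) in both B libraries. Gfm2, a factor of ribosome recycling, was at 58.2 and 43.9 CPM in resting and at 69.0 and 54.5 CPM in activated Treg. Of 20 mitochondrial aminoacyl tRNA synthetases, 3 were higher and 10 lower in both B libraries, and the median log2 fold change was -0.06. Lars2, between 2334 and 2686 CPM, made up most of that list's sum, and Iars2 had its smallest p, at 35.8 and 29.6 CPM in resting and at 23.3 and 24.0 CPM in activated Treg (edgeR adjusted p = 0.643). In these 3 lists 0 genes had an unadjusted edgeR p under 0.05, against 8.91% of all genes tested.

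The RNAs that the ribosome holds and reads come from the mitochondrial genome. The small ribosomal RNA mt-Rnr1 was at 1887 and 1680 CPM in resting and at 1484 and 1442 CPM in activated Treg. The large ribosomal RNA mt-Rnr2 was at 13293 and 14636 CPM in resting and at 12543 and 13404 CPM in activated Treg. The groups did not overlap for mt-Rnr1 (log2 fold change -0.29 ± 0.16, edgeR adjusted p = 0.768) and overlapped for mt-Rnr2 (-0.11 ± 0.15). Of the 11 tested mitochondrial genes, 9 were lower in both B libraries, against 37.2% of all genes tested. Their median log2 fold change was -0.16 with 10 of 11 below 0, and in 5 (45.5%) activated Treg lay below resting Treg without overlap, against 17.4% of all genes tested. At an unadjusted edgeR p under 0.05 the count was 0 of 11. Among those 5 was mt-Co3, at only 21, 33, 14 and 19 counts, with the lowest log2 fold change of the list, -0.55. The list holds 15 genes, and mt-Co2, mt-Atp6, mt-Atp8 and mt-Nd4l, at 0 to 9 counts, failed the filter. In the same list mt-Co1 was at 125720, 181176, 164540 and 93755 counts. Why mt-Co3 and the genes that failed had so few was not tested, and their counts were not read as their levels. Of the genes listed as cytosolic ribosomal proteins, 81 of 84 had a log2 fold change below 0, with a median of -0.24. In 63 of them activated Treg lay below resting Treg without overlap (17.4% of all genes tested). The list was drawn by symbol, so it also holds genes such as Rps19bp1 and Rpl7l1 that may not encode ribosome subunits. The 3 above 0 were Rps27l, Rpl39l and Rpl7l1. At an unadjusted edgeR p under 0.05, 2 of the 84 were lower, a share near the 2.61% of all genes tested. No difference between the lists was tested.

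Among regulators of mitochondrial biogenesis, Myc, a transcription factor of cell growth, was at 249 and 289.6 CPM in resting and at 184 and 194 CPM in activated Treg. The activated pair lay below the resting pair, with a log2 fold change of -0.51 ± 0.17 and an edgeR p of 0.0320 that was 0.485 after adjustment. It was the only one of 11 tested regulators with an unadjusted p under 0.05, against 2.61% of all genes tested in that direction. C1qbp, a mitochondrial matrix protein that takes part in ribosome formation, was at 14.1 and 19.2 CPM in resting and at 9.59 and 11.9 CPM in activated Treg and did not pass.

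The members' promoters were searched for letters of factors known to bind promoters of nuclear genes for mitochondrial proteins. RefSeq promoters of 300 bases, from 250 before to 50 after the start (GRCm38.p6), were found for 68 of 77 members, with 74 promoters in all. The ETS letters CCGGAAG were in 25 of 74 (33.8%), against 8.86% of all 32851 promoters in the table and 11.9% of those of protein-coding genes. The NRF1 letters GCGCANGCG were in 16 (21.6%, against 6.25% and 8.90%), and the YY1 letters AAGATGGCG were in 8 (10.8%, against 1.40% and 1.93%). The E-box CACGTG, bound by Myc among others, was in 7 (9.46%, against 7.15% and 8.03%). Both strands were searched, the E-box reads the same on both, and none of the other motifs contains another. A match is a description and not evidence of binding.

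The following stretches are shown because they hold those letters in members named above or in both subunits. Capitals mark the match, with up to 10 bases on each side, written 5′ to 3′ in the direction of the gene.
Mrpl12, NRF1 letters, chr11:120484547-120484575, plus strand: attgtctccgCGCCTGCGCgtcgcaccgc
Mrpl17, NRF1 letters, chr7:105811080-105811108, minus strand: ccgagttactGCGCATGCGtcctctgaga
Mrpl22, NRF1 letters, chr11:58171621-58171649, plus strand: gcctcggactGCGCATGCGtatagtcagc
Mrpl22, ETS letters, chr11:58171601-58171627, plus strand: ttttccggtcCCGGAAGccggcctcgg
Mrps18b, NRF1 letters, chr17:35916646-35916674, minus strand: aacggcccgaCGCATGCGCactgggagca
Mrps12, ETS letters, chr7:28741804-28741830, minus strand: aggaggaaccCCGGAAGgggctggagg
Mrps27, YY1 letters, chr13:99344790-99344818, plus strand: ggtgcgctccAAGATGGCGgctcccatgg
Mrps11, YY1 letters, chr7:78783013-78783041, plus strand: ctacgggcgcCGCCATCTTtctgtcttcc

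In Mrpl22 the NRF1 match begins 33 and the ETS match 53 bases before the start site, and the 2 stretches overlap on the chromosome. The NRF1 match of Mrpl12 begins 80 bases before the start. In Mrps12 the ETS match begins at base 2 of the transcript, and in Mrps27 the YY1 match begins at base 15. Mrps18b, which holds both NRF1 and ETS letters, was one of the 6 members with the opposite order of libraries, and Mrpl12, with NRF1 letters, followed the common order. Members with and without these letters were not compared for their order of libraries, so these examples show no link.

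Part of the members also share an arrangement in the genome. For 33 of 77 (42.9%) the start of another protein-coding gene lies within 1000 bases on the opposite strand, against 10.8% of all 22028 protein-coding genes in GENCODE M21. One such pair joins the subunits: Mrpl46 and Mrps11 start 42 bases apart on chromosome 7 by RefSeq and are transcribed away from each other, and their annotated exons overlap in GENCODE M21. Mrpl46 was at 50.4, 61.7, 49.9 and 64.1 CPM. Mrps11 was at 27.5, 33.4, 21.9 and 38.3 CPM. Both were higher in the B libraries. The sources used here do not say whether reads from the overlap were counted for either gene or left out. Mrps12 starts 172 bases from Sars2, the mitochondrial seryl tRNA synthetase, by GENCODE M21.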

How the data were processed

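The count table of the series holds raw counts per Ensembl gene, deposited by the authors, and the submitters' processing notes name featureCounts. A second deposited table holds the authors' regularized log2 values from DESeq2, in which low values are shrunk; the sources used here do not say whether that step used the groups. The same notes name STAR 2.4.0c and mm10, without roles. Annotation release and strand setting are not stated there. Symbols, positions and exon lengths came from GENCODE M21 (same build), which matched 37607 of 38924 identifiers. Genes were kept by filterByExpr (minimum count 10, minimum total 15; 14235 genes), scaled by TMM factors and tested with edgeR 4.0.16 (R 4.3.3) on group alone, prior count 2, Benjamini-Hochberg adjustment, threshold 0.05. The script was tested on simulated data, whose outcome supports no statement here. SE was taken as log2 fold change divided by the root of F, and intervals use edgeR's total degrees of freedom, so both are approximate. Differences between libraries use log2(CPM + 0.5). Alternatives used DESeq2 1.42.0, limma 3.58.1, other scalings and fewer libraries. Named members were those with non-overlapping groups and the smallest p, the highest and lowest per kilobase, the largest spread within groups, or a known role, and, from each companion list, those with the smallest p. Mrpl42, Mrpl46, Mrpl50, Mrpl52 and Mrps11 were named after their values were seen. Members, lists and this rule were chosen with earlier results of these data known.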

Additional observations from a re-analysis of the deposited data

How the results depend on the processing

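In the alternative fits to all 4 libraries, 0 members of either subunit were called. These used DESeq2 or upper-quartile factors, no filter, the DESeq2 test, limma-voom, or limma on the regularized log values with and without the replicate number as a block. The DESeq2 test called 442 of 13959 genes (3.17%). No such share is given for the other fits named here, so their 0 members called cannot be told from a test that calls few genes. Each library was also left out in turn. With a library left out, its group holds 1 library, which is assumed to vary like the 2 of the other group, so those fits say little about calls. Over those fits the median of the large subunit ranged from -0.207 without activated B to 0.154 without activated A, and that of the small subunit from -0.197 to 0.0995 in the same fits; without resting A they were -0.132 and -0.152, and without resting B 0.107 and 0.0914, where Mrpl53 failed the filter. Single pairs of libraries gave -0.314 and -0.285 for activated A against resting B, and 0.301 and 0.260 for activated B against resting A. Without the filter the median over all genes was 0.121, while the medians of the subunits were -0.0705 and -0.0743. With the replicate block the medians were -0.0286 and -0.0668, as without it, and 1 large subunit gene had an unadjusted limma p under 0.05. The share of all genes under 0.05 is not given for that fit. In it Mrpl30 had a log2 fold change of -0.378 and a limma adjusted p of 0.0545, against 0.519 without the block. Same-numbered libraries of the regularized log table deviated from their group means together (Pearson's r = 0.652 over genes tested), but no source ties a number to a shared animal or day, so the numbers were not taken to pair the libraries, nor is a pairing excluded. Over all members, 24 of 77 changed sign without resting A, 16 of 76 without resting B, 25 of 77 without activated A and 28 of 77 without activated B. Among the 29 members named by rule, those were: without resting B, Mrpl36 0.133, Mrpl18 0.0953 and Mrps18c 0.131; without activated A, Mrpl36 0.263, Mrpl18 0.101, Mrps18c 0.0995, Mrpl58 0.107 and Mrps18b -0.0389; without resting A, Mrps21 -0.167, Mrpl14 -0.0224, Mrpl54 -0.0649, Mrpl12 -0.0599, Mrps12 -0.139 and Mrps18a -0.0476; without activated B, Mrpl53 0.0108, Mrps21 -0.197, Mrpl14 -0.228, Mrps6 -0.0935, Mrpl54 -0.320, Mrpl12 -0.255, Mrps12 -0.215, Mrps18a -0.196 and Mrps36 -0.0881. Mrps21 and Mrps12, at almost 0, were -0.0376 and -0.0358 without the filter, -0.0118 and -0.0280 by limma-voom, and -0.00817 and -0.0109 on the regularized log values with or without the block. The other ends of these leave-one-out ranges were, without activated B, Mrpl36 -0.456, Mrpl18 -0.339, Mrps18c -0.297, Mrpl58 -0.439 and Mrps18b 0.267; without activated A, Mrps21 0.181, Mrpl14 0.555, Mrps6 0.752, Mrpl54 0.529, Mrpl12 0.347, Mrps12 0.198, Mrps18a 0.304 and Mrps36 0.498; and without resting A, Mrpl53 -0.518. The cause of these sign changes was not tested.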
